A study of Homo sapiens with 9 samples.

Results

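The genes described here encode nuclear subunits of the mitochondrial respiratory chain and ATP synthase. They were taken by name from the count tables: every symbol that starts with NDUFA, NDUFB, NDUFC, NDUFS, NDUFV, UQCR, COX4 to COX8 or ATP5, together with SDHA, SDHB, SDHC, SDHD and CYC1. The 8 symbols that start with NDUFAF (assembly factors and the pseudogene NDUFAF4P1) and 2 other pseudogenes were left out. This gave 93 of the 26364 genes in the tables. Of these, 37 are subunits of complex I, 4 of complex II, 10 of complex III, 19 of complex IV and 16 of complex V, so that 86 encode subunits. The other 7 are ATP5S and ATP5SL, which share the name but are not among the subunits counted here, 2 read-through transcripts and 3 antisense RNAs. NDUFA4 and NDUFA4L2 carry a complex I name and were placed with complex IV, where NDUFA4 is known to sit.

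The respiratory chain passes electrons from NADH (complex I) and succinate (complex II) through ubiquinone to complex III, then through cytochrome c to complex IV, which reduces oxygen. Complexes I, III and IV pump protons across the inner mitochondrial membrane, and complex V, the ATP synthase, uses their return to make ATP. All of the genes described here are in the nucleus. The subunits encoded by mitochondrial DNA, which include those of the catalytic centres of complex IV and the membrane core of complexes I and III, were not analysed here. Breast cancer cells of the MDA-MB-231 type are known for strong aerobic glycolysis while they keep a working respiratory chain.

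RNA came from the human breast cancer line MDA-MB-231, which lacks hormone receptors and has mesenchymal features, after 48 h in DMEM with 10% serum. The cells carried a lentiviral pLVX construct: the empty vector, MEL-18 WT (the wild-type protein) or MEL-18 T334A (which cannot be phosphorylated at that threonine). PCGF2 is the gene for MEL-18, a RING finger subunit of the Polycomb complex PRC1, which modifies chromatin. Each group held 3 libraries given as biological replicates. The labels do not say whether the 3 cultures came from separate infections or from 1 infected population, and p-values here cover only the spread among these libraries, which may be technical. A difference between constructs cannot be told apart from a difference between the infected cell populations.

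The 9 libraries held 31643722 to 37005302 counts, and the 93 genes took 0.793% to 0.852% of them. Levels are given as CPM, counts relative to library sizes scaled by TMM (trimmed mean of M-values). PCGF2 stood at 22.2, 23.8 and 22.3 CPM with the empty vector, 1292, 1287 and 1279 CPM with MEL-18 WT and 1419.9, 1450.7 and 1389 CPM with MEL-18 T334A, so every library followed its label as vector or MEL-18. Gene counts do not show the T334A codon, so they do not check which MEL-18 form a library holds. VIM, which marks mesenchymal cells, ran from 1428 to 1572 CPM, and ESR1, PGR and CDH1 were at or near 0 in all libraries, while the epithelial genes ERBB2 and EPCAM ran from 62.8 to 70.5 and from 7.20 to 12.6 CPM. The epithelial keratins KRT8 and KRT18 were expressed too, at 299.8 to 324 and 244 to 315 CPM. Endothelial PECAM1, CDH5 and VWF ran from 0.28 to 1.16, 0.14 to 1.19 and 0.15 to 0.49 CPM. Among markers of blood, fibroblast and muscle cells, PTPRC, CD3E, COL1A2, DCN, LUM and MYOD1 stayed below 1 CPM. In the same lists CD68 ran from 48.5 to 57.6 CPM, COL1A1 from 8.30 to 14.2 CPM and PDGFRB from 6.21 to 11.1 CPM, and whether they come from other cells was not tested. A gene was called higher or lower at a Benjamini-Hochberg adjusted p below 0.05 in edgeR's quasi-likelihood test over all 14738 genes with enough counts. Of the 93 genes, 84 had enough counts to be tested, among them 79 of the 86 subunit genes.

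Per kilobase of coding transcript, the complexes differed in level in the empty vector cells, with complex IV highest and complex I lowest. The median tested subunit gene had 184 CPM per kb in complex IV, 147 in complex V, 103 in complex III, 99.2 in complex II and 59.4 in complex I. The order was the same with merged exon lengths, where the medians were 95.6, 79.6, 64.5, 62.3 and 35.2 CPM per kb. Complexes III and II lay close together on both scales, and a median over 4 genes (complex II) is imprecise. ATP5B, the catalytic beta subunit of the ATP synthase, was the most abundant of all by either length, at 482 CPM per kb and 887 ± 21.0 CPM (SD, n = 3). Lengths were taken from a later annotation than the counts, so levels between genes are approximate.

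Tissue-restricted isoforms were nearly silent next to their ubiquitous partners. Over all 9 libraries together COX4I2, the lung and hypoxia form of subunit 4, had 3 counts, COX6A2, the heart and muscle form of subunit 6A, had 1, and COX8C, a testis form of subunit 8, had 1. COX7A1, the heart and muscle form of subunit 7A, had 47 counts, COX6B2, the testis form of subunit 6B, had 44, and NDUFA4L2, a hypoxia-induced relative of NDUFA4, had 28. ATP5L2, a copy of the subunit g gene, had 8, and both read-through transcripts had 0. These 9 genes had too few counts for a test. COX7B2, the testis form of subunit 7B, was the exception at 34.7 ± 1.13 CPM with the empty vector, beside 79.0 ± 3.81 CPM for COX7B, the ubiquitous form (SD, n = 3). UQCRHL, a copy of the hinge protein gene UQCRH, was counted at 17.1 ± 2.88 CPM against 130.0 ± 5.52 CPM for UQCRH. Because the copies are nearly identical, the split of reads between them is uncertain.

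NRF1 (nuclear respiratory factor 1), the ETS factors GABPA and GABPB1, YY1 and SP1 are known regulators of nuclear respiratory chain genes. A RefSeq promoter (GRCh38.p14, 250 bases before to 50 bases after the gene start) was matched for 69 of the 86 subunit genes. An exact match to the NRF1 motif, searched as GCGCA and GCGC with any 1 base between them, stood in 16 of them (23.2%), against 11.2% of the promoters of all tested genes and 6.28% of all 27305 promoters. By complex the motif stood in 6 of 32 promoters of complex I, 2 of 3 of complex II, 4 of 7 of complex III, 1 of 16 of complex IV and 3 of 11 of complex V. The ETS motif CCGGAAG stood in 27.5%, against 18.3% of the promoters of tested genes, and the YY1 motif AAGATGGC in 15.9%, against 5.17%. The SP1 motif GGGGCGGGG was less frequent, at 13.0% against 27.2%. Both strands were searched, and no motif contains another. These are counts of letters in a window and show no binding.

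Upstream sequence is printed for 4 genes that the results below turn on: SDHA and UQCRC1, called higher with MEL-18 T334A against the empty vector, NDUFB4, called lower in the same comparison, and COX7A2L, which had the largest change of all subunit genes. Each line gives the 200 bases before the RefSeq gene start, 5′ to 3′ on the gene's own strand. Every NRF1 match that lies fully inside these bases is in capitals.
SDHA: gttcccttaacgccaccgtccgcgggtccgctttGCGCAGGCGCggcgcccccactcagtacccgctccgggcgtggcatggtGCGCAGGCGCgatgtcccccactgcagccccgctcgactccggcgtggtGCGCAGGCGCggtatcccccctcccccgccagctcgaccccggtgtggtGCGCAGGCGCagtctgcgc
UQCRC1: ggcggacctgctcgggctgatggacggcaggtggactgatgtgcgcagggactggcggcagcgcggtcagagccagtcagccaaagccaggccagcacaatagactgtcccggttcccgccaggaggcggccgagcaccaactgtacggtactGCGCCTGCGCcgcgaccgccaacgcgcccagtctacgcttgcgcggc
NDUFB4: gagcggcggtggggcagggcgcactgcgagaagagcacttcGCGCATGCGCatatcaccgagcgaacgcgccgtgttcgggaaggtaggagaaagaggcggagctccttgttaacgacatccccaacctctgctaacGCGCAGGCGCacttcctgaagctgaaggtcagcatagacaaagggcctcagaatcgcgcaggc
COX7A2L: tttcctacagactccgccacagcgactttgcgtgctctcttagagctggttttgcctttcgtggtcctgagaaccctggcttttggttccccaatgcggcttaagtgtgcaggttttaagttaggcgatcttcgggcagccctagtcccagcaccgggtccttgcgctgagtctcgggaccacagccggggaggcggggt
The coordinates in GRCh38.p14 are chr5:218120-218319, plus strand for SDHA, chr3:48609647-48609846, minus strand for UQCRC1, chr3:120596136-120596335, plus strand for NDUFB4 and chr2:42361218-42361417, minus strand for COX7A2L. SDHA has 4 matches in this window, which start 166, 117, 68 and 19 bases before the gene start and all read GCGCAGGCGC. UQCRC1 has 1 match, NDUFB4 has 2 and COX7A2L none. A further match of NDUFB4, at -8 relative to the gene start, runs past this window and is not in capitals. SDHA, UQCRC1 and NDUFB4 were picked from called genes with a match in this window, so their matches were fixed by that choice. The printed sequences do not relate the motif to the calls.

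The first comparison asked what wild-type MEL-18 does relative to the empty vector. Subunit genes moved little: 4 of 79 were called higher and 13 lower, while 14.4% of all genes tested were called higher and 14.4% lower. Among the 5176 tested genes at or above 46.7 CPM on average, the lower quartile of the respiratory chain genes, 10.8% were higher and 22.2% lower, so calls leaned downward among genes of similar level too. With ATP5S, 18 of the 84 tested genes of the whole set (21.4%) were called, against 28.8% of all genes tested. SDHC (complex II), NDUFB2 (complex I) and NDUFA4 (complex IV) fell by 17.4%, 16.0% and 14.8%, and the largest increase was that of ATP5G1, a gene for subunit c of complex V, by 16.2%. Over the 84 tested genes the 5 higher calls became 11 with library totals alone, 10 without vector replicate 1 and 3 without vector replicate 3 or MEL-18 WT replicate 2, and the 13 lower calls became 8 without vector replicate 1. Bulk RNA cannot tell fewer expressing cells from less RNA per cell.

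By complex, MEL-18 WT gave 1 higher and 6 lower calls among 37 genes of complex I, 0 and 1 among 4 of complex II, and 2 and 0 among 10 of complex III. Complex IV had 0 higher and 5 lower calls among 13 tested genes, and complex V had 1 higher and 1 lower among 15. Median log2 fold changes were close to 0: -0.00 for complex I, 0.00 for complex II, 0.05 for complex III, -0.03 for complex IV and 0.03 for complex V. The libraries of the 2 groups did not overlap for 28 of the 79 genes, 11 above the vector (21.4% of all genes tested) and 17 below it (21.3%), against 42.7% of all genes tested either way.

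The second comparison set the phosphorylation-deficient form against the same empty vector libraries. MEL-18 T334A gave 11 higher and 8 lower calls among the 79 subunit genes, 24.1% of them. Of all genes tested 45.9% were called, 23.4% higher and 22.5% lower, and of those at or above 46.7 CPM 20.3% were higher and 37.7% lower. The balance of calls depended on the scaling and on single libraries: library totals alone gave 21 higher and 5 lower over the 84 tested genes, leaving out vector replicate 1 gave 20 higher, and leaving out T334A replicate 1 or using DESeq2 gave 5 lower. COX7A2L, a supercomplex factor of complex IV, fell by 20.4%, the largest change, followed by rises of ATP5G1 and UQCRC1, core protein 1 of complex III, by 15.3% and 15.0%. Complex I had 6 higher and 4 lower calls, complex II 1 and 0, complex III 1 and 1, complex IV 0 and 2, and complex V 3 and 1. Median log2 fold changes of the 5 complexes ran from -0.02 (complex II) to 0.02 (complex III). Groups did not overlap for 20 genes, 9 above (26.2% of all genes tested) and 11 below (25.2%), against 51.5% either way.

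The third comparison, between the constructs, tests their difference directly. MEL-18 T334A was higher than MEL-18 WT for 16 of the 79 subunit genes and lower for 5, together 26.6%. Of all genes tested 40.9% were called, 21.0% higher and 20.0% lower. NDUFA8 and NDUFB2 of complex I and NDUFA4 of complex IV were higher by 17.3% to 19.5%, and COX7A2L was lower. By complex the higher and lower calls were 7 and 2 in complex I, 2 and 0 in complex II, 1 and 0 in complex III, 4 and 2 in complex IV, and 2 and 1 in complex V. Among the genes at or above 46.7 CPM, 23.3% were higher and 31.3% lower in this comparison. The 5 lower calls became 2 without T334A replicate 1, 3 without MEL-18 WT replicate 2 and 9 without T334A replicate 3. Groups did not overlap for 26 subunit genes, 19 above (24.7% of all genes tested) and 7 below (24.0%), against 48.7% either way. The 3 comparisons share libraries in pairs, so their counts are not independent of each other.

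**Figure D1:**
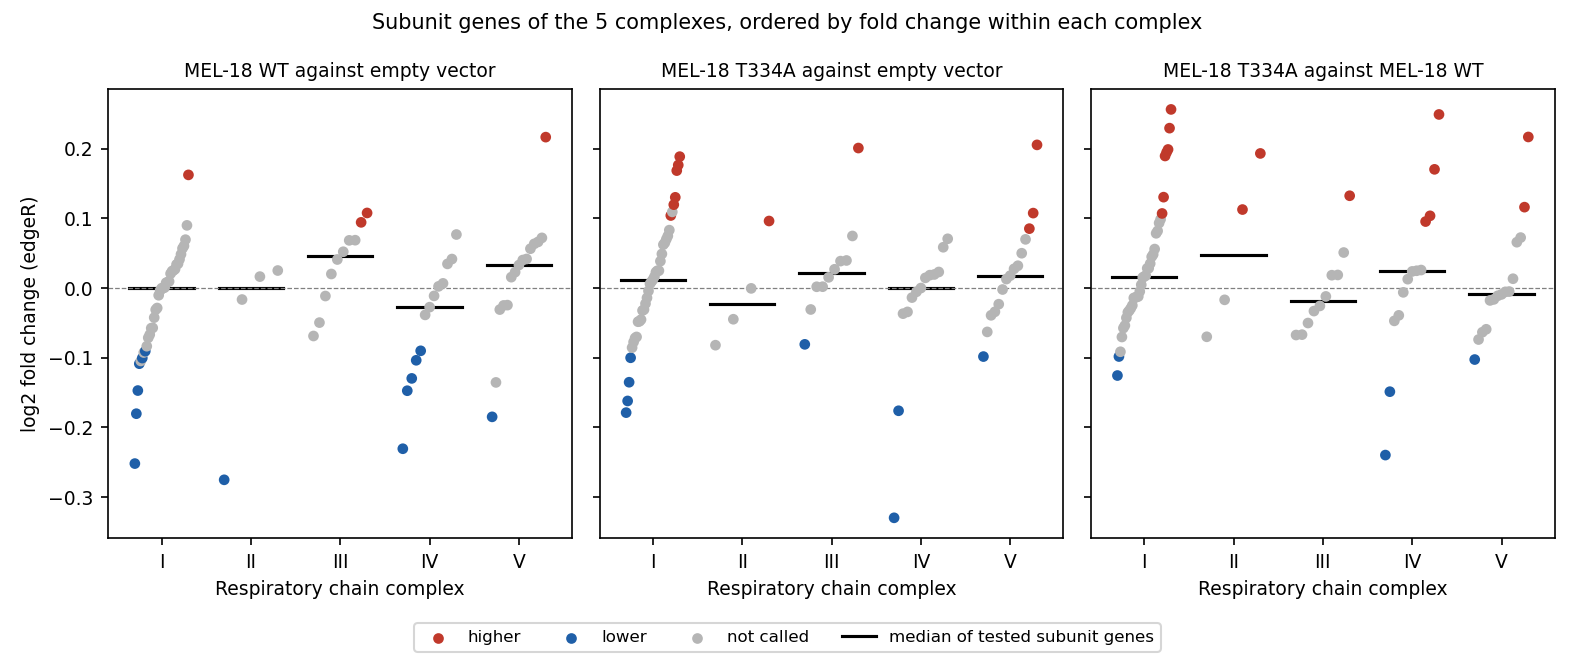
Each point is 1 tested subunit gene (79 in each panel), placed by complex on the x axis and by its edgeR log2 fold change on the y axis. Red and blue points were called higher or lower at an adjusted p below 0.05, grey points were not called, and the black lines are medians. The medians lie within 0.05 of 0 in every complex, while single genes reach 0.26 above and 0.33 below.

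The changes were small in absolute terms as well. The median absolute log2 fold change of the 84 tested genes was 0.05 with MEL-18 WT, 0.05 with MEL-18 T334A and 0.05 between the constructs. All genes tested had medians of 0.10, 0.14 and 0.12, and those with at least 46.7 CPM had 0.06, 0.10 and 0.09. Only SDHC with MEL-18 WT and COX7A2L with MEL-18 T334A, both against the vector, passed a 1.2-fold change among the subunit genes. Of the 79 genes, 32 were called in at least 1 comparison and 47 in none. Uncalled log2 fold changes ran from -0.14 to 0.09 with MEL-18 WT, -0.09 to 0.11 with MEL-18 T334A and -0.09 to 0.10 between the constructs.

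Summed over all subunit genes of a complex, the libraries overlapped in most comparisons with TMM and in fewer with library totals alone. Complex I summed to 2190.25, 2122 and 2080.5 CPM with the empty vector, 2122, 2137 and 2103 with MEL-18 WT, and 2112, 2195 and 2212 with MEL-18 T334A. These groups overlapped throughout with TMM. Scaled by library totals alone, the T334A sums of complex I, at 2148, 2232 and 2222 CPM, were above both other groups. Within complex I, the 7 core subunits, which carry the flavin and the iron-sulphur clusters, summed with TMM to 606 ± 7.59 CPM with the vector, 608 ± 1.17 with MEL-18 WT and 635 ± 8.49 with MEL-18 T334A (SD, n = 3). All 3 T334A libraries lay above the other 6 for this sum, with TMM and with library totals alone.

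Complex IV summed to 1519, 1484 and 1446 CPM with the empty vector and to 1421, 1444 and 1422 CPM with MEL-18 WT. The MEL-18 WT libraries were all below the vector libraries with TMM, and the groups overlapped with library totals alone. The T334A libraries, at 1416, 1489 and 1494 CPM, overlapped with both other groups with TMM. With library totals alone they were above the MEL-18 WT libraries and overlapped with the vector. Complex II summed to 440.4 ± 7.42, 432 ± 6.27 and 447 ± 11.6 CPM in the 3 groups in the same order (SD, n = 3). Its T334A libraries were above the MEL-18 WT libraries under both scalings, and above the vector libraries with library totals alone.

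The 4 core subunits of complex III (UQCRC1, UQCRC2, CYC1 and the Rieske protein UQCRFS1) summed to 635, 627 and 610.0 CPM with the vector, 661, 674 and 652 CPM with MEL-18 WT and 642, 668 and 679.7 CPM with MEL-18 T334A. Both MEL-18 groups were above the vector for this sum under both scalings, while the small subunits of complex III overlapped in all comparisons. Complex V summed to 2863 ± 63.9, 2903 ± 38.5 and 2923 ± 72.1 CPM (SD, n = 3), with overlap with TMM. Scaled by library totals alone, both MEL-18 groups were above the vector for the whole of complex III and of complex V.

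**Figure D2:**
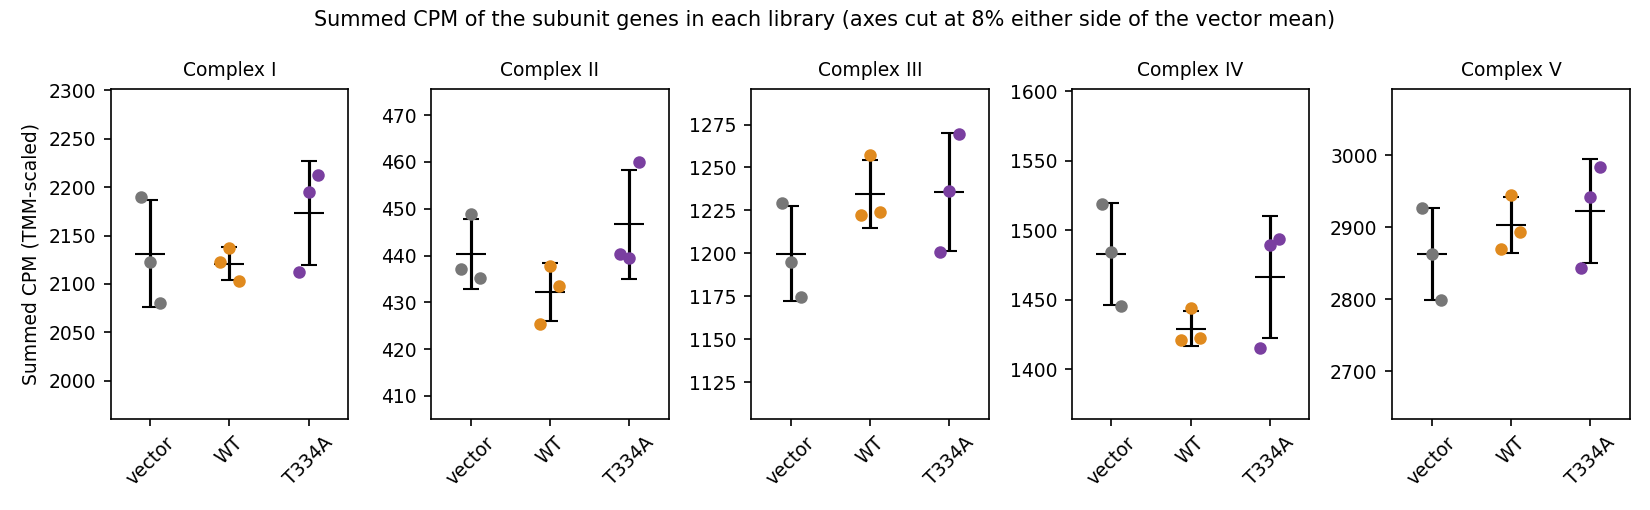
Points are the summed CPM of all subunit genes of a complex in each of the 9 libraries, with 1 panel per complex, and the horizontal lines and bars are the mean and SD of 3 libraries. Each y axis spans 8% either side of the vector mean and does not start at 0. The MEL-18 WT libraries lie below the vector libraries for complex IV, at 1421 to 1444 against 1446 to 1519 CPM.

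Libraries of 1 group also differed from each other in the level of the whole set. Across all 5 complexes the median subunit gene of vector replicate 1 lay 0.03 (log2) above its mean over the 9 libraries, and the deviation of vector replicate 3 was -0.04. T334A replicates 1 and 3 deviated by -0.03 and 0.04. The median of all genes tested stayed within 0.00509 of 0 in each library. These deviations are of the size of the complex medians given above, and their source was not tested.

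In the core of complex I, the Q module passes electrons to ubiquinone. NDUFS3, a subunit of this module, had 77.3, 74.8 and 73.9 CPM with the empty vector, 70.8, 70.7 and 70.8 CPM with MEL-18 WT and 80.8, 80.2 and 82.0 CPM with MEL-18 T334A. The 3 groups were separate, with MEL-18 WT lowest and MEL-18 T334A highest. NDUFS3 was higher with MEL-18 T334A against the vector (log2 fold change 0.10 ± 0.03, edgeR adjusted p = 0.00786) and against MEL-18 WT (0.19 ± 0.03, adjusted p = 1.55e-05). Its fall with MEL-18 WT (-0.09 ± 0.03, adjusted p = 0.0318) lost its call without any 1 of 5 of the 6 libraries compared, the exception being vector replicate 3, with adjusted p up to 0.166.

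The N module of complex I takes the electrons from NADH. NDUFV1, which holds the flavin, had 104, 104 and 100.1 CPM with the empty vector, 115, 114 and 117 CPM with MEL-18 WT and 106, 116 and 113 CPM with MEL-18 T334A. Both MEL-18 groups were above the vector, and NDUFV1 rose with MEL-18 WT (log2 fold change 0.16 ± 0.03, edgeR adjusted p = 0.000425) and with MEL-18 T334A (0.12 ± 0.03, adjusted p = 0.00442). NDUFV2, an iron-sulphur subunit, had 91.1, 90.8 and 91.8 CPM with the empty vector, 95.9, 94.9 and 96.4 CPM with MEL-18 WT and 106, 99.0 and 104 CPM with MEL-18 T334A. The T334A libraries were the highest, and NDUFV2 was called higher with MEL-18 T334A against the vector (log2 fold change 0.18 ± 0.03, edgeR adjusted p = 4.48e-05) and against MEL-18 WT (0.11 ± 0.03, adjusted p = 0.00706).

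Accessory subunits of complex I changed in both directions. NDUFA8, in the membrane arm, had 45.2, 40.0 and 39.3 CPM with the empty vector, 38.5, 38.8 and 35.1 CPM with MEL-18 WT and 41.7, 45.4 and 47.1 CPM with MEL-18 T334A. Its MEL-18 WT libraries were the lowest, and it was higher with MEL-18 T334A than with MEL-18 WT (log2 fold change 0.26 ± 0.05, edgeR adjusted p = 0.0002). The fall of NDUFA8 with MEL-18 WT (-0.15 ± 0.05, adjusted p = 0.0325) lost its call on leaving out vector replicate 1 (adjusted p = 0.298) or MEL-18 WT replicate 3 (0.219), and with a replicate block (0.0577). NDUFB2, another membrane arm subunit, had 19.8, 20.5 and 19.9 CPM with the empty vector, 16.4, 16.7 and 17.5 CPM with MEL-18 WT and 19.2, 20.5 and 19.6 CPM with MEL-18 T334A. MEL-18 WT was again separate from both other groups, and NDUFB2 fell by 16.0% against the vector (log2 fold change -0.25 ± 0.05, edgeR adjusted p = 0.00041) and was higher with MEL-18 T334A than with MEL-18 WT (0.23 ± 0.05, adjusted p = 0.000686). Where strand was not used in counting, reads of NDUFB2 and of its antisense RNA could not be told apart, but the antisense RNA was counted below 1 CPM in the mean of every group.

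NDUFA6, a LYR protein that binds the mitochondrial acyl carrier protein, had 53.7, 50.9 and 49.1 CPM with the empty vector, 51.2, 51.9 and 49.6 CPM with MEL-18 WT and 56.2, 58.9 and 60.1 CPM with MEL-18 T334A. The T334A libraries were above all others, against the vector (log2 fold change 0.19 ± 0.04, edgeR adjusted p = 0.000209) and against MEL-18 WT (0.20 ± 0.04, adjusted p = 0.000129). NDUFA9, at the junction of the 2 arms, showed the same order, with 77.2, 74.3 and 74.3 CPM with the empty vector, 76.1, 76.0 and 73.6 CPM with MEL-18 WT and 80.0, 83.4 and 83.7 CPM with MEL-18 T334A. It was higher with MEL-18 T334A than with the vector (log2 fold change 0.13 ± 0.03, edgeR adjusted p = 0.00178) and than with MEL-18 WT (0.13 ± 0.03, adjusted p = 0.00196). NDUFB8, in the membrane arm, had 103, 97.2 and 94.7 CPM with the empty vector, 104, 105 and 105 CPM with MEL-18 WT and 105, 114 and 114 CPM with MEL-18 T334A. It was called higher with MEL-18 T334A against the vector (log2 fold change 0.17 ± 0.04, edgeR adjusted p = 0.000351), and the MEL-18 WT libraries lay above the vector and overlapped with MEL-18 T334A.

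Membrane arm subunits NDUFB4, NDUFB5 and NDUFB6 fell with MEL-18 T334A against the vector. NDUFB4 had 71.2, 69.7 and 70.8 CPM with the empty vector, 65.2, 65.6 and 65.5 CPM with MEL-18 WT and 61.0, 63.3 and 62.6 CPM with MEL-18 T334A. Both MEL-18 groups were below the vector, with log2 fold changes of -0.18 ± 0.03, adjusted p = 4.81e-05 for MEL-18 T334A and -0.11 ± 0.03, adjusted p = 0.0105 for MEL-18 WT. NDUFB5 had 57.3, 56.6 and 56.3 CPM with the empty vector, 52.0, 54.3 and 52.5 CPM with MEL-18 WT and 50.9, 51.1 and 52.9 CPM with MEL-18 T334A. It was called lower with MEL-18 T334A (-0.14 ± 0.03, adjusted p = 0.00209) and with MEL-18 WT (-0.10 ± 0.03, adjusted p = 0.0279), the latter losing its call without any 1 of 5 of the 6 libraries compared, with adjusted p up to 0.117. NDUFB6 had 51.6, 47.3 and 46.5 CPM with the empty vector, 46.8, 44.2 and 44.3 CPM with MEL-18 WT and 41.2, 43.8 and 44.8 CPM with MEL-18 T334A. Its T334A libraries were below the vector (-0.16 ± 0.04, adjusted p = 0.00283).

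NDUFA11 and NDUFB10, also of the membrane arm, were called lower with MEL-18 T334A although the groups overlapped in the comparisons concerned. NDUFA11 had 90.2, 94.4 and 91.7 CPM with the empty vector, 97.7, 94.7 and 88.7 CPM with MEL-18 WT and 80.6, 86.8 and 90.3 CPM with MEL-18 T334A. Its calls against the vector (log2 fold change -0.10 ± 0.04, edgeR adjusted p = 0.0378) and against MEL-18 WT (-0.13 ± 0.04, adjusted p = 0.0108) were lost without T334A replicate 1, where adjusted p was 0.294 and 0.114. The call against the vector was also lost with a replicate block (adjusted p = 0.0595). NDUFB10 (-0.10 ± 0.03, adjusted p = 0.026 against MEL-18 WT) lost its call without that library as well (0.157).

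In complex II, SDHC, a membrane anchor, had 55.1, 52.5 and 50.8 CPM with the empty vector, 41.8, 46.2 and 42.9 CPM with MEL-18 WT and 50.8, 49.3 and 49.7 CPM with MEL-18 T334A. All MEL-18 WT libraries were below all others. SDHC fell by 17.4% with MEL-18 WT (log2 fold change -0.28 ± 0.04, edgeR adjusted p = 6.39e-06) and was higher with MEL-18 T334A than with MEL-18 WT (0.19 ± 0.04, adjusted p = 0.000369), while MEL-18 T334A against the vector was not called (-0.08 ± 0.04, adjusted p = 0.0959). SDHA, the flavoprotein that oxidises succinate, had 173, 181 and 174 CPM with the empty vector, 169.7, 175 and 178 CPM with MEL-18 WT and 187, 186 and 192 CPM with MEL-18 T334A. The T334A libraries were the highest, against the vector (log2 fold change 0.10 ± 0.03, edgeR adjusted p = 0.00899) and against MEL-18 WT (0.11 ± 0.03, adjusted p = 0.00306). SDHA shares sequence with pseudogene copies, so its count is uncertain if reads were assigned to those. SDHB, the iron-sulphur subunit, had 92.9, 97.1 and 95.0 CPM with the empty vector, 97.5, 95.7 and 96.8 CPM with MEL-18 WT and 90.1, 92.6 and 93.5 CPM with MEL-18 T334A, and SDHD, the other anchor, had 116, 118 and 115 CPM with the empty vector, 116, 121 and 116 CPM with MEL-18 WT and 113, 112 and 125 CPM with MEL-18 T334A. Neither was called in any comparison, and the log2 fold change of SDHB between the constructs was -0.07 ± 0.03, adjusted p = 0.0691.

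The core of complex III held the increases of that complex. UQCRC1, core protein 1, had 184, 182 and 178 CPM with the empty vector, 191, 193 and 187 CPM with MEL-18 WT and 199, 214 and 212 CPM with MEL-18 T334A. Its 3 groups were separate, and it rose with MEL-18 T334A against the vector (log2 fold change 0.20 ± 0.03, edgeR adjusted p = 4.83e-06) and against MEL-18 WT (0.13 ± 0.03, adjusted p = 0.000885). UQCRC2, core protein 2, had 163, 162 and 159.5 CPM with the empty vector, 169.5, 176 and 172 CPM with MEL-18 WT and 162, 163 and 169 CPM with MEL-18 T334A. It was called higher with MEL-18 WT (log2 fold change 0.09 ± 0.03, edgeR adjusted p = 0.0145), a call lost without MEL-18 WT replicate 2 (adjusted p = 0.0848) or without vector replicate 3 (0.0554). CYC1, cytochrome c1, had 172, 174 and 163 CPM with the empty vector, 182, 188 and 179 CPM with MEL-18 WT and 169, 183 and 183 CPM with MEL-18 T334A. Its rise with MEL-18 WT (log2 fold change 0.11 ± 0.03, edgeR adjusted p = 0.0161) was lost on leaving out either of the same libraries (adjusted p = 0.0901 and 0.107, respectively).

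The Rieske protein gene UQCRFS1, with 111 ± 3.71, 117 ± 1.996 and 111 ± 3.22 CPM in the 3 groups in that order (SD, n = 3), was not called. Of the small subunits, UQCR11 alone was called, lower with MEL-18 T334A against the vector (log2 fold change -0.08 ± 0.03, edgeR adjusted p = 0.0399). UQCR11 had 67.1, 68.1 and 67.0 CPM with the empty vector, 64.7, 64.2 and 63.9 CPM with MEL-18 WT and 62.6, 64.4 and 64.1 CPM with MEL-18 T334A. Its call was lost without any 1 of the 9 libraries, with adjusted p up to 0.147.

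In complex IV, COX7A2L showed the largest change of any subunit gene. It is related to subunit 7A and is known for joining complexes III and IV into supercomplexes. COX7A2L had 95.3, 89.7 and 89.7 CPM with the empty vector, 86.0, 85.9 and 86.1 CPM with MEL-18 WT and 71.6, 72.9 and 74.0 CPM with MEL-18 T334A. The T334A libraries were far below both other groups. COX7A2L fell by 20.4% with MEL-18 T334A against the vector (log2 fold change -0.33 ± 0.03, edgeR adjusted p = 4.54e-09) and was lower than with MEL-18 WT (-0.24 ± 0.03, adjusted p = 1.35e-06). The smaller fall with MEL-18 WT (-0.09 ± 0.03, adjusted p = 0.0342) lost its call without vector replicate 1 (adjusted p = 0.237), without each single MEL-18 WT library and with a replicate block (0.0514). Its relative COX7A2, the ubiquitous subunit 7A, had 75.9 ± 1.82, 76.3 ± 1.71 and 76.9 ± 5.18 CPM in the 3 groups (SD, n = 3) and was not called.

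NDUFA4, COX8A, COX6C and COX4I1 of complex IV were lowest with MEL-18 WT. NDUFA4 had 77.2, 74.3 and 76.0 CPM with the empty vector, 62.4, 67.3 and 64.0 CPM with MEL-18 WT and 73.4, 77.8 and 79.0 CPM with MEL-18 T334A. MEL-18 WT was separate from both other groups, and NDUFA4 fell by 14.8% against the vector (log2 fold change -0.23 ± 0.04, edgeR adjusted p = 1.61e-05) and was higher with MEL-18 T334A than with MEL-18 WT (0.25 ± 0.04, adjusted p = 3.48e-06). COX8A, the ubiquitous subunit 8, had 143, 145 and 130.3 CPM with the empty vector, 124, 129 and 124 CPM with MEL-18 WT and 139, 145 and 141 CPM with MEL-18 T334A. It fell with MEL-18 WT (log2 fold change -0.15 ± 0.03, edgeR adjusted p = 0.00187) and was higher with MEL-18 T334A than with MEL-18 WT (0.17 ± 0.03, adjusted p = 0.000273).

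COX6C, the subunit 6C gene, had 116, 115 and 117 CPM with the empty vector, 107, 105 and 107 CPM with MEL-18 WT and 109.6, 115 and 115 CPM with MEL-18 T334A. Its fall with MEL-18 WT (log2 fold change -0.13 ± 0.03, edgeR adjusted p = 0.00164) separated the groups, and its excess with MEL-18 T334A over MEL-18 WT (0.10 ± 0.03, adjusted p = 0.0126) lost its call without MEL-18 WT replicate 2 (adjusted p = 0.0543). COX4I1, the ubiquitous subunit 4, had 249, 245 and 238 CPM with the empty vector, 226, 225 and 230.3 CPM with MEL-18 WT and 235, 246 and 251 CPM with MEL-18 T334A. It was lower with MEL-18 WT than with the vector (log2 fold change -0.10 ± 0.03, edgeR adjusted p = 0.00914), though not called without vector replicate 1 (adjusted p = 0.0597), and higher with MEL-18 T334A than with MEL-18 WT (0.10 ± 0.03, adjusted p = 0.0063).

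COX7B2, the testis form of subunit 7B that these cells express, had 34.9, 35.7 and 33.4 CPM with the empty vector, 35.0, 32.5 and 34.6 CPM with MEL-18 WT and 31.7, 31.3 and 29.1 CPM with MEL-18 T334A. It was lowest with MEL-18 T334A, against the vector (log2 fold change -0.18 ± 0.04, edgeR adjusted p = 0.00203) and against MEL-18 WT (-0.15 ± 0.04, adjusted p = 0.00855), the latter call being lost without T334A replicate 3 (adjusted p = 0.0538). COX7B was not called, with 79.0 ± 3.81, 83.3 ± 0.347 and 82.96 ± 1.999 CPM (SD, n = 3). COX6A1 and COX6B1, the ubiquitous subunits 6A and 6B, were not called either, with log2 fold changes from -0.01 to 0.06 in the 3 comparisons.

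In complex V, subunit c of the rotor ring is made from several genes with the same mature protein, and they did not move together. ATP5G1 had 59.8, 51.9 and 51.4 CPM with the empty vector, 61.97, 63.9 and 63.7 CPM with MEL-18 WT and 58.5, 65.7 and 63.7 CPM with MEL-18 T334A. It rose with MEL-18 WT (log2 fold change 0.22 ± 0.05, edgeR adjusted p = 0.000746) and with MEL-18 T334A (0.21 ± 0.05, adjusted p = 0.000735), although vector replicate 1 reached the lowest T334A library. ATP5G2 had 124, 126 and 121 CPM with the empty vector, 126, 132 and 129.9 CPM with MEL-18 WT and 117, 126 and 119 CPM with MEL-18 T334A. It was called lower with MEL-18 T334A than with MEL-18 WT (log2 fold change -0.10 ± 0.03, edgeR adjusted p = 0.0122) with overlap of the groups, and not without T334A replicate 1 (adjusted p = 0.0818) or MEL-18 WT replicate 2 (0.0814). ATP5G3, at 170.4 ± 3.91, 168 ± 4.96 and 166 ± 6.95 CPM (SD, n = 3), was not called. The sum of the 3 genes overlapped between all groups with TMM.

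In the catalytic head of complex V, 1 of the 5 tested genes was called. ATP5A1, the alpha subunit, had 551, 549 and 537 CPM with the empty vector, 532, 536 and 535 CPM with MEL-18 WT and 567, 588 and 582 CPM with MEL-18 T334A. The T334A libraries were above all others, against the vector (log2 fold change 0.09 ± 0.03, edgeR adjusted p = 0.0107) and against MEL-18 WT (0.12 ± 0.03, adjusted p = 0.000995). ATP5B, the beta subunit with which it alternates in the head, was not called, at 887 ± 21.0, 907 ± 22.4 and 904 ± 19.7 CPM (SD, n = 3).

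In the stalk and membrane part, ATP5J2, subunit f, had 46.7, 49.9 and 46.2 CPM with the empty vector, 40.6, 43.8 and 41.3 CPM with MEL-18 WT and 48.0, 47.1 and 51.0 CPM with MEL-18 T334A. It was lowest with MEL-18 WT, below the vector (log2 fold change -0.18 ± 0.04, edgeR adjusted p = 0.00122) and below MEL-18 T334A (0.22 ± 0.04, adjusted p = 0.000134). ATP5O, the OSCP that joins stalk and head, had 92.3, 85.5 and 85.3 CPM with the empty vector, 89.5, 91.9 and 89.4 CPM with MEL-18 WT and 92.1, 95.3 and 96.0 CPM with MEL-18 T334A. It was called higher with MEL-18 T334A against the vector (log2 fold change 0.11 ± 0.03, edgeR adjusted p = 0.0108), with overlap through vector replicate 1, and not called without vector replicate 2 (adjusted p = 0.0567). ATP5J, coupling factor 6 of the stalk, had 77.0, 72.1 and 71.6 CPM with the empty vector, 73.3, 73.3 and 70.4 CPM with MEL-18 WT and 66.5, 70.4 and 69.3 CPM with MEL-18 T334A. Its fall with MEL-18 T334A (-0.10 ± 0.04, adjusted p = 0.0255) was lost without vector replicate 1 (adjusted p = 0.215) or T334A replicate 1 (0.143).

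**Figure D3:**
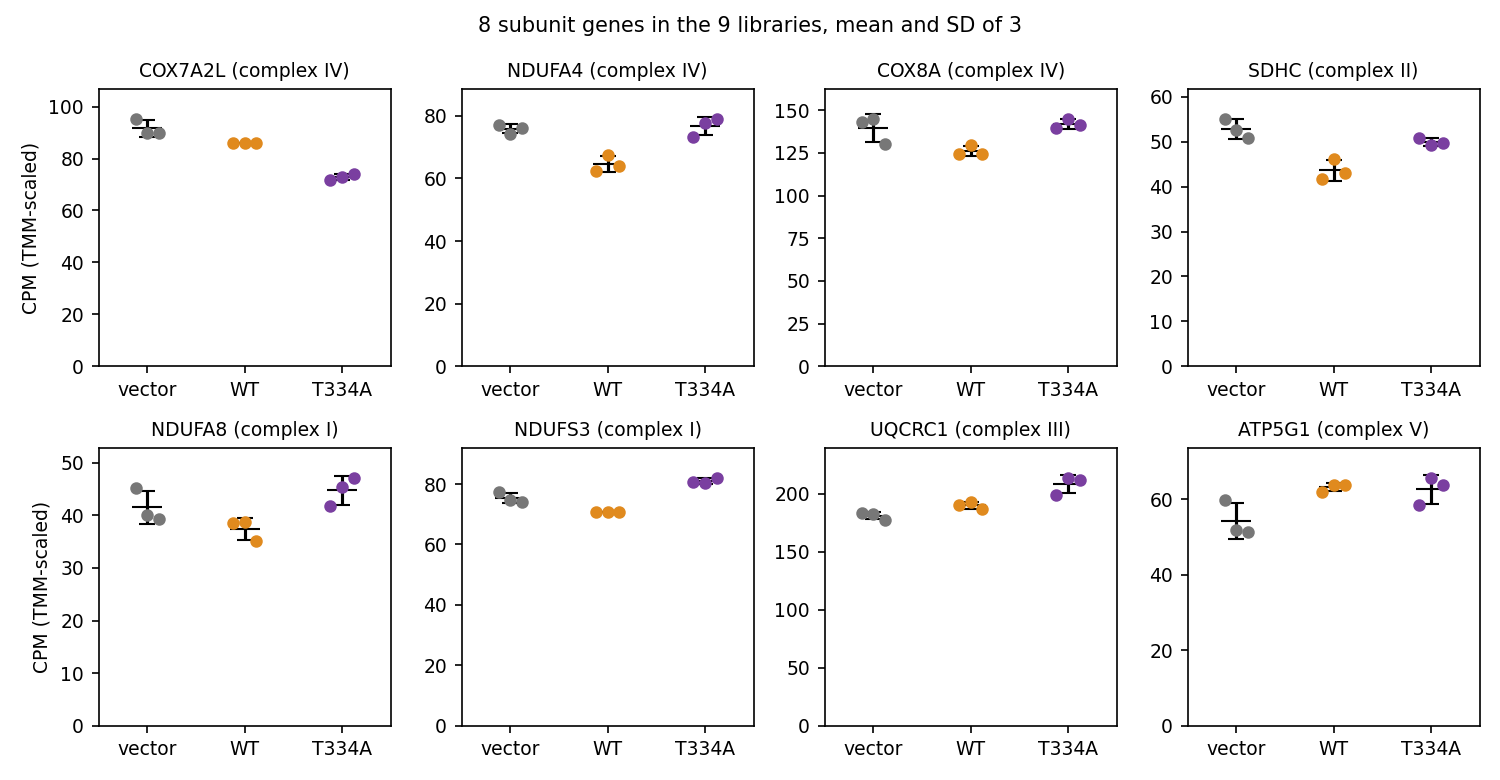
CPM of 8 subunit genes (y axes, from 0) in the 3 libraries of each group, with the mean and SD as lines and bars. COX7A2L is lowest with MEL-18 T334A, at 71.6 to 74.0 CPM, NDUFA4, COX8A, SDHC, NDUFA8 and NDUFS3 are lowest with MEL-18 WT, and UQCRC1 is highest with MEL-18 T334A, at 199 to 214 CPM.

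Over the 3 comparisons the 32 called genes fell into a few patterns. Of these, 9 were called lower with MEL-18 WT against the vector and higher with MEL-18 T334A against MEL-18 WT, without a call between MEL-18 T334A and the vector, among them ATP5J2, COX4I1, COX6C, COX8A, NDUFA4, NDUFA8, NDUFB2 and SDHC. Both calls use the same MEL-18 WT libraries. Another 6 were called higher with MEL-18 T334A against both other groups: ATP5A1, NDUFA6, NDUFA9, NDUFV2, SDHA and UQCRC1. ATP5G1 and NDUFV1 were called higher with both constructs, NDUFB4 and NDUFB5 lower with both, without a call between the constructs. COX7A2L was called lower in all 3 comparisons.

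Of the 7 genes that share the names but are not subunits, ATP5S was called higher with MEL-18 WT (log2 fold change 0.18 ± 0.05, edgeR adjusted p = 0.0122), from 15.8 ± 0.438 to 17.96 ± 0.382 CPM. That call was lost without vector replicate 2 (adjusted p = 0.0503). ATP5SL was not called in any comparison, and neither were the 3 antisense RNAs, all below 1 CPM in the mean of each group.

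The changes of the respiratory chain genes followed those of the genes next to them on the chromosome. For each gene, the median log2 fold change of the 20 tested genes on each side was taken, leaving out the respiratory chain genes. Across the 84 tested genes, Pearson's r with this median was 0.54 with MEL-18 WT, 0.69 with MEL-18 T334A and 0.43 between the constructs, and Spearman's rho was 0.52, 0.50 and 0.48. The relation was not limited to this set, since rho over 14426 tested genes was 0.34, 0.33 and 0.40, and whether the set differs from them was not tested. These are descriptions across genes that share libraries and, for near neighbours, flanking genes. Of the called genes, 17 of 18, 18 of 19 and 20 of 21 had the sign of their neighbours, against 74.3%, 68.5% and 77.4% of all called genes.

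Named members show the size of this. SDHC, on chromosome 1, fell by 0.28 (log2) with MEL-18 WT, while its neighbours had a median of -0.21. The 5 tested genes of chromosome 7, among them NDUFA4, NDUFB2 and ATP5J2, had a median of -0.18 with MEL-18 WT and 0.22 between the constructs, and their neighbours had -0.15 and 0.17. COX7A2L, on chromosome 2, fell by 0.33 with MEL-18 T334A, with neighbours at -0.26. NDUFV2, on chromosome 18, rose by 0.18 with neighbours at 0.25. What these regional shifts come from was not tested.

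With the neighbours' shift taken out of the fit as a known offset, 4 of the 18 calls for MEL-18 WT against the vector remained: ATP5G1, COX6C, COX8A and UQCRC2. For MEL-18 T334A against the vector 5 of 19 remained with the same sign: COX7A2L at -0.10 (adjusted p = 0.0186), UQCRC1 at 0.08 (adjusted p = 0.0356), ATP5G1 at 0.14 (adjusted p = 0.0189), ATP5O at 0.17 (adjusted p = 0.000169) and NDUFS3 at 0.09 (adjusted p = 0.0229). NDUFB5 changed sign, to 0.10 (adjusted p = 0.0225). Between the constructs 6 of 21 remained, among them COX7A2L, NDUFS3, SDHA, COX6C and ATP5G2. The calls of all other members named above were lost in this fit. The offset carries its own error, which the fit leaves out.

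**Figure D4:**
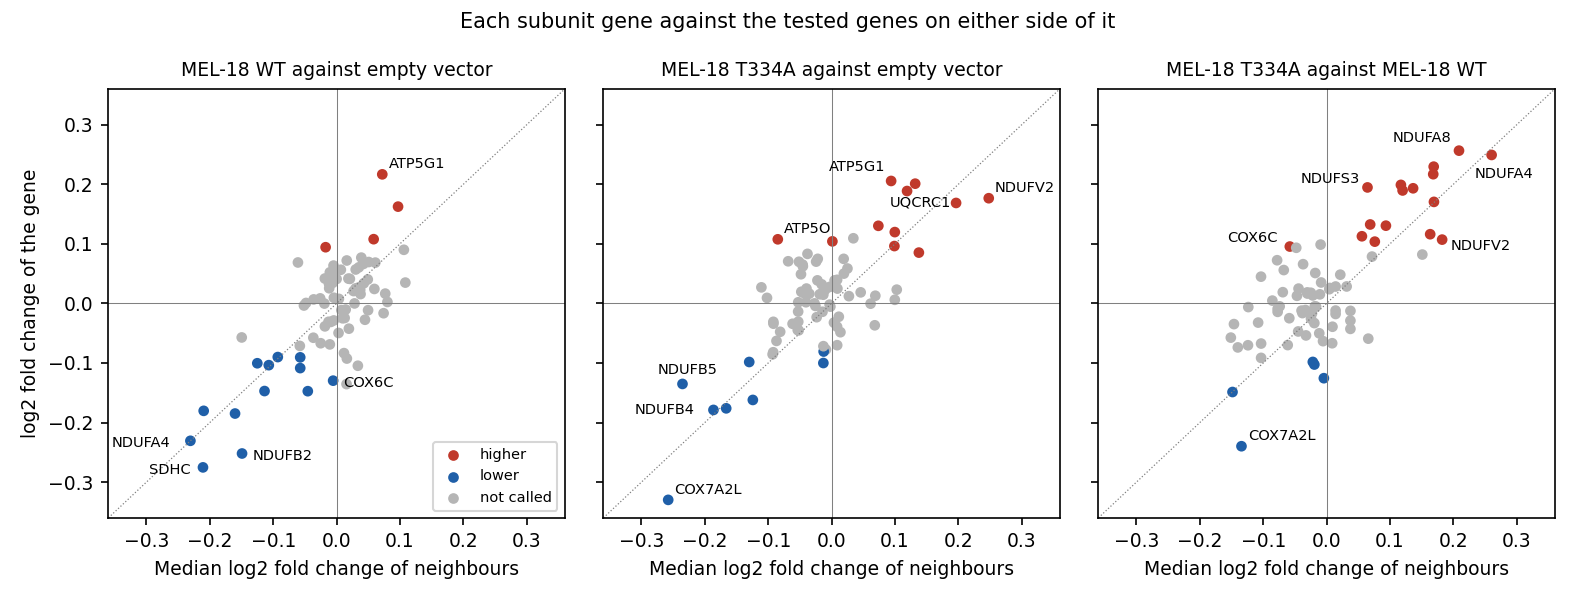
For each of the 79 tested subunit genes, the log2 fold change of the gene (y axis) is plotted against the median log2 fold change of the 20 tested genes on each side of it (x axis), with the dotted line marking equal values. Red and blue points were called higher or lower, and they share the sign of their neighbours except COX6C, UQCRC2 and ATP5O, which do not in 1 comparison each.

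Genes that build and serve the chain are given from lists, by the number called of those tested. The neighbours' shift and the alternative fits are reported for the respiratory chain genes alone, so the list calls below carry no such check. Over all called genes, 74.3%, 68.5% and 77.4% had the sign of their neighbours in the 3 comparisons. Whether the changes of the list genes follow their chromosomal neighbours was not tested. Of all genes tested, 14.4% were higher and 14.4% lower with MEL-18 WT. With MEL-18 T334A against the vector the shares were 23.4% and 22.5%, and between the constructs 21.0% and 20.0%. List medians ran from -0.05 to 0.04 (log2) with MEL-18 WT, -0.08 to 0.05 with MEL-18 T334A and -0.09 to 0.06 between the constructs, and the median of all genes tested was -0.00 in each. Of 20 assembly factors of complex I, 0 were higher and 2 lower with MEL-18 WT, 1 and 7 with MEL-18 T334A against the vector, and 1 and 4 between the constructs. ACAD9, a factor for the membrane arm, went from 53.4 ± 0.462 to 47.4 ± 1.35 CPM with MEL-18 WT (log2 fold change -0.17 ± 0.04, edgeR adjusted p = 0.0005) and to 45.7 ± 1.34 CPM with MEL-18 T334A (-0.23 ± 0.04, adjusted p = 1.13e-05). COA1 fell from 91.6 ± 1.87 to 76.7 ± 2.59 CPM with MEL-18 WT (log2 fold change -0.26 ± 0.03, edgeR adjusted p = 1.04e-06).

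Of 10 assembly factors for complexes II and III, 1 was higher and 2 lower with MEL-18 WT, 2 and 3 with MEL-18 T334A, and 3 and 2 between the constructs. SDHAF3, which helps to mature SDHB, fell from 17.3 ± 0.915 to 14.2 ± 0.337 CPM with MEL-18 WT (log2 fold change -0.28 ± 0.06, edgeR adjusted p = 0.000526), and UQCC1, needed for cytochrome b, fell from 62.5 ± 2.18 to 53.8 ± 1.58 CPM with MEL-18 T334A (log2 fold change -0.22 ± 0.04, edgeR adjusted p = 1.59e-05). Among 28 assembly factors of complex IV the counts were 4 and 3, 4 and 5, and 3 and 6. LRPPRC, which stabilises mitochondrial mRNAs, fell from 372 ± 5.22 to 309 ± 14.9 CPM with MEL-18 T334A (log2 fold change -0.27 ± 0.03, edgeR adjusted p = 9.50e-08). The copper chaperone COX17 fell from 33.9 ± 0.632 to 28.5 ± 1.57 CPM (log2 fold change -0.25 ± 0.04, edgeR adjusted p = 4.88e-05), and COX15, for haem A, rose from 57.3 ± 0.303 to 66.03 ± 1.43 CPM (log2 fold change 0.20 ± 0.03, edgeR adjusted p = 1.58e-05). COA7 rose from 35.0 ± 0.563 to 41.1 ± 1.31 CPM with MEL-18 WT (log2 fold change 0.23 ± 0.04, edgeR adjusted p = 7.17e-05).

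A list of 8 genes for ATP synthase held assembly and regulation factors and small proteins of the enzyme without an ATP5 name. Among these genes, 1, 2 and 2 were higher and 0 lower in the 3 comparisons. The higher calls were near the shares of all genes tested, at 14.4%, 23.4% and 21.0%. USMG5, a small membrane protein of the enzyme, rose from 89.8 ± 1.26 to 98.0 ± 1.14 CPM with MEL-18 WT (log2 fold change 0.13 ± 0.03, edgeR adjusted p = 0.00703) and to 105 ± 5.89 CPM with MEL-18 T334A (0.23 ± 0.03, adjusted p = 4.82e-06). Of 19 genes for electron carriers and coenzyme Q synthesis, 1 was higher and 3 lower with MEL-18 WT, 4 and 3 with MEL-18 T334A, and 4 and 2 between the constructs. CYCS, cytochrome c itself, fell from 249 ± 10.2 to 217 ± 2.93 CPM with MEL-18 WT (log2 fold change -0.20 ± 0.04, edgeR adjusted p = 0.000221). COQ4 rose from 26.8 ± 0.984 to 30.7 ± 1.33 CPM with MEL-18 T334A (log2 fold change 0.20 ± 0.04, edgeR adjusted p = 0.00078).

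Of 23 tested regulators of mitochondrial biogenesis, 3 were higher and 1 lower with MEL-18 WT, 3 and 5 with MEL-18 T334A, and 4 and 5 between the constructs. PPARGC1B, a coactivator of respiratory chain genes, rose from 23.1 ± 0.418 to 27.6 ± 0.487 CPM with MEL-18 WT (log2 fold change 0.26 ± 0.04, edgeR adjusted p = 5.61e-05) and was lower with MEL-18 T334A than with MEL-18 WT (-0.21 ± 0.04, adjusted p = 0.000324). GABPB2, a partner of the ETS factor GABPA, fell from 5.72 ± 0.729 to 4.36 ± 0.169 CPM with MEL-18 WT (log2 fold change -0.39 ± 0.10, edgeR adjusted p = 0.00403) and to 4.11 ± 0.170 CPM with MEL-18 T334A (-0.47 ± 0.10, adjusted p = 0.000404).

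Of 19 genes of the tricarboxylic acid cycle and pyruvate entry, 3 were higher and 3 lower with MEL-18 WT, 5 and 3 with MEL-18 T334A, and 6 and 3 between the constructs. IDH2, the mitochondrial NADP-dependent isocitrate dehydrogenase, rose from 14.5 ± 0.892 to 19.0 ± 0.506 CPM with MEL-18 WT (log2 fold change 0.39 ± 0.06, edgeR adjusted p = 5.07e-06) and to 22.4 ± 0.926 CPM with MEL-18 T334A (0.63 ± 0.06, adjusted p = 5.62e-10). OGDH, which feeds NADH from the cycle to complex I, fell from 194 ± 3.30 to 166 ± 0.0984 CPM with MEL-18 WT (log2 fold change -0.22 ± 0.03, edgeR adjusted p = 4.31e-07).

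The mitochondrial ribosome, which translates the subunits encoded by mitochondrial DNA, had more lower than higher calls with MEL-18 T334A. Of its 77 tested genes, 8 were higher and 8 lower with MEL-18 WT, 5 and 28 with MEL-18 T334A against the vector, and 9 and 33 between the constructs. The medians were -0.00, -0.07 and -0.09 (log2), and among genes with at least 46.7 CPM 37.7% were lower with MEL-18 T334A against the vector and 31.3% against MEL-18 WT. The share of ribosome genes lower against the vector was near that value, and the share lower against MEL-18 WT was above it. Of all genes tested, 22.5% and 20.0% were lower in these comparisons. Ribosome genes had fewer higher calls than genes with at least 46.7 CPM, of which 20.3% and 23.3% were higher. Whether the ribosome genes lie at this level was not tested. MRPL19 fell from 138 ± 2.67 to 102 ± 2.06 CPM with MEL-18 T334A (log2 fold change -0.44 ± 0.03, edgeR adjusted p = 4.28e-12), and MRPS16 rose from 93.5 ± 2.504 to 117 ± 4.44 CPM (log2 fold change 0.32 ± 0.03, edgeR adjusted p = 8.50e-09). Of 23 protein import genes, 1 was higher and 2 lower with MEL-18 WT, 4 and 6 with MEL-18 T334A, and 5 and 8 between the constructs. PMPCA, a subunit of the protease that removes import signals, rose from 42.1 ± 1.60 to 52.9 ± 1.79 CPM with MEL-18 T334A (log2 fold change 0.33 ± 0.04, edgeR adjusted p = 7.45e-08), and TOMM5, of the outer membrane channel, was lower with MEL-18 T334A than with MEL-18 WT, from 135 ± 3.89 to 106 ± 7.79 CPM (log2 fold change -0.35 ± 0.04, edgeR adjusted p = 1.16e-07).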

How the data were processed

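RNA from 9 cultures was sequenced after poly(A) selection with a stranded kit, per the labels' protocols. As deposited, the values are raw counts per gene symbol. The tools the authors used were CASAVA 1.8, STAR 2.5.3a and Subread 1.5.3 (featureCounts), with hg19, per the submitters' processing notes. The strand setting, the annotation and the handling of multiply mapped reads, not given in the sources used here, leave counts of overlapping, antisense and near-identical genes uncertain. From 26364 genes, edgeR 4.0.16 (R 4.3.3) kept 14738 by filterByExpr. TMM scaling and quasi-likelihood F tests, fitted to the 9 libraries with 1 mean for each group, gave two-sided p-values with Benjamini-Hochberg adjustment, called below 0.05. The SE of a log2 fold change is its size over the square root of F. The test was checked on simulated counts with a common spread for all genes and no shifts along chromosomes. That check cannot cover calls in regions that shift together. Libraries held 31643722 to 37005302 counts, and the common coefficient of variation was 2.57%.

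The text names, per comparison and complex, up to 3 called genes with the largest rise and up to 3 with the largest fall (at least 2 CPM over the 9 libraries), the SDH genes, isoform families and up to 3 called genes of each list. NDUFS3, NDUFA9, NDUFB10, UQCRFS1, ATP5B, NDUFS8, ATP5S and ATP5SL were added after their values were seen. Some genes that the rule would name are not reported here. The genes and lists were chosen with earlier results of these data known. Alternatives were no filter, at least 1 CPM in 3 libraries, RLE factors, library totals, DESeq2 1.42.0, limma 3.58.1 (voom), the compared groups alone, a replicate block and leaving out each library. Taking out the neighbours' shift (RefSeq gene order) and merged exon lengths (GENCODE on GRCh38) were added after seeing the data. Promoter sequences are RefSeq's, on GRCh38.p14.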

Additional observations from a re-analysis of the deposited data

How the results depend on the processing

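Counts of called genes below are for the 84 tested genes. Under RLE factors, limma voom and the compared groups alone, the counts higher and lower stayed within 1.5 times those reported. With library totals alone, calls higher were 11 for MEL-18 WT against the vector and 21 for MEL-18 T334A against the vector, and calls lower in the latter were 5, as with DESeq2 (5). This scaling moved the median of all genes by 0.04 (log2) for MEL-18 T334A against the vector, and the complex II and V medians there were 0.0156 and 0.0562.

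Leaving out each library in turn, MEL-18 WT against the vector gave 3 to 10 higher and 8 to 14 lower, MEL-18 T334A against the vector 11 to 20 and 5 to 7, and MEL-18 T334A against MEL-18 WT 15 to 19 and 2 to 9. Without vector replicate 1 there were 10 higher and 8 lower for MEL-18 WT and 20 higher for MEL-18 T334A. Without vector replicate 3 or MEL-18 WT replicate 2 there were 3 higher for MEL-18 WT. Without T334A replicate 1 there were 5 lower against the vector and 2 lower against MEL-18 WT. Without T334A replicate 3 there were 9 lower against MEL-18 WT, and without MEL-18 WT replicate 2 there were 3. The complex II median ran from -0.0535 to 0.000325 for MEL-18 T334A against the vector and from 0.0132 to 0.0699 against MEL-18 WT, and the complex IV median against MEL-18 WT from -0.0059 to 0.0545.

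Same-numbered replicates correlated at -0.14 to 0.05 in their deviations from group means, and differently numbered ones at -0.12 to 0.17. No shift shared by replicate number was thus seen, but this cannot show whether the numbers pair cultures, and no label says so. A fit with the replicate number as a block gave 5 higher and 11 lower for MEL-18 WT, 11 and 7 for MEL-18 T334A, both against the vector, and 16 and 5 between the constructs.

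With the neighbours' shift taken out, 3 were higher and 4 lower for MEL-18 WT, 3 lower for MEL-18 T334A against the vector, and 8 higher and 3 lower between the constructs. For MEL-18 WT the complex II and V medians became -0.0674 and 0.0051, and between the constructs the complex III median became 0.0241. Of named genes called with or without this offset, NDUFB5 (0.0115) turned sign in log2 fold change with MEL-18 WT. With MEL-18 T334A against the vector they turned for NDUFB8 (-0.0201), NDUFV1 (-0.00178), NDUFV2 (-0.0479), ATP5A1 (-0.0471), SDHA (-0.0225), ATP5J (0.0246), NDUFB5 (0.1) and NDUFS8 (-0.115, edgeR adjusted p = 0.0167). Between the constructs they turned for NDUFV2 (-0.0647), ATP5A1 (-0.0242), COX7B2 (0.0297) and COX7B (0.112, edgeR adjusted p = 0.0136). The cause was not tested. At these depths an SE near 0.04 (log2) bounds what a single gene can show.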
